A study of Drosophila simulans with 22 samples.

Results

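Transcription start site clusters (TSCs) on unplaced scaffolds were followed through the embryonic development of Drosophila simulans. These scaffolds are assembled sequence that could not be ordered along a chromosome. The members were all TSCs of the deposited list whose chromosome was chrU or had "random" in its name, with no use of their expression. They numbered 2944 of 25410 TSCs. They fell into 3 scaffold classes, with 744 TSCs on U, 294 TSCs on the heterochromatic random scaffolds of chromosomes 2, 3 and X (2h_random, 3h_random and Xh_random), and 1906 TSCs on the random scaffolds of the chromosome arms and of chromosome 4. None of the 2944 was assigned to a gene by the authors, so each is given here by its deposited identifier and its position on the FlyBase r1.4 assembly, counted from 1. The other 22466 TSCs, on placed chromosomes, were 5096 unassigned TSCs and 17370 gene-assigned TSCs.

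The series held 22 samples of whole embryos of strain w[501], the strain of the reference genome, without any treatment. Flies laid for 1 h, and the embryos were aged and frozen, giving 1 sample for each hour between 0-1 h and 21-22 h after egg laying. RAMPAGE, a method that sequences cDNAs with an intact 5′ end and so marks transcription starts, was run with 1 barcode per sample in a single pooled library. There were no replicates: the windows compared below are early (0-6 h), middle (8-14 h) and late (16-22 h), each of 6 hourly samples, and the spread within a window therefore includes change with age.

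U is a concatenation of sequence with no known chromosome, in arbitrary order, and the random scaffolds are assigned to a chromosome but not placed on it. Much of the unplaced sequence of fly assemblies is repeat-rich heterochromatin, the compact chromatin around the centromeres, where transposable elements and satellite repeats are dense and genes few. Genes that do reside there in Drosophila melanogaster are known to need the heterochromatic surroundings for normal expression. In the first hours a fly embryo holds mostly maternal transcripts, laid down in the egg. The zygotic genome then takes over as the maternal transcripts decay, so a TSC read in the first samples can be one that was used in the mother.

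Depth ranged between 322564 reads at 12-13 h and 17206157 reads at 9-10 h, with a median of 2858592. Values are RPM, reads scaled to a total of 1000000 over all TSCs of a sample, and 1 read was worth between 0.0581 and 3.10 RPM. The composition of the late samples stood apart. The 10 strongest TSCs of each sample held 8.42% to 13.0% of its reads in the early window, 9.31% to 15.5% in the middle window and 29.1% to 39.6% in the late window. A single gene-assigned TSC took 13.1% to 18.2% of the reads of each late sample. Since these samples are whole embryos, fewer cells that use a TSC and less RNA per cell cannot be told apart.

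Most unplaced TSCs were weak. Of the 2944, 2190 (74.4%) reached 2 RPM in at least 1 hour, the minimum for the tests below, 1048 (35.6%) reached 10 RPM and 310 reached 100 RPM. The mean over the 22 hours was under 1 RPM for 1486 TSCs (50.5%), and 596 TSCs (20.2%) had a read in every hour. The number with at least 1 read moved with depth, between 1087 at 12-13 h and 2849 at 9-10 h. A minimum of 10 RPM, which is more than 3 reads in every sample, was passed by 417 TSCs at 17-18 h and 613 TSCs at 13-14 h, the lowest and the highest number in any hour.

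The 3 scaffold classes differed in how many of their TSCs were strong. On U, 196 TSCs (26.3%) reached 10 RPM, on the heterochromatic random scaffolds 87 TSCs (29.6%), and on the arm random scaffolds 765 TSCs (40.1%). The share was 21.1% among unassigned placed TSCs and 53.4% among gene-assigned placed TSCs. The median width followed the same order, at 19 bp on U, 23 bp on heterochromatic random scaffolds and 36 bp on arm random scaffolds, with 17 bp for unassigned placed and 51.5 bp for gene-assigned placed TSCs. These are descriptions of the deposited list, and the authors' peak calling on the pooled reads of all hours sets both the widths and the least number of reads, which was 14.

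Within each sample the mean RPM per TSC was higher for unplaced than for unassigned placed TSCs and lower than for gene-assigned placed TSCs. Placed TSCs were split by gene assignment, which no unplaced TSC has. Any starts of genes among the unplaced TSCs thus cannot be told apart from the others, here and in the later comparisons with the placed sets. Unplaced TSCs averaged 16.0 to 33.5 RPM per TSC over the hours (median 28.4), unassigned placed TSCs 6.79 to 11.4 (median 9.00), and gene-assigned placed TSCs 49.0 to 52.5 (median 49.9). The log2 ratio of unplaced to unassigned placed TSCs averaged 1.56 ± 0.33 (SD, n = 22 hours), or 2.95-fold, and was above 0 in 22 of 22 hours. Between the median TSCs of the 2 sets, with 1 RPM added, the ratio was 0.42, or 1.34-fold, and above 0 in 19 of 22 hours. The median unassigned placed TSC, with this 1 RPM, had a median of 1 over the hours, which means no reads. This median ratio therefore rests in part on the added 1 RPM. The ratio of unplaced to gene-assigned placed TSCs averaged -0.94 ± 0.35 on the log2 scale and was above 0 in 0 of 22 hours. A two-sided sign-flip permutation test of each ratio gave an adjusted p of 1e-05, the smallest that 100000 resamples can give, for these and for the 3 ratios between scaffold classes. Neighbouring hours are alike, so these p-values can be too small.

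Among the scaffold classes, TSCs on U had the lowest mean RPM. The log2 ratio of U to heterochromatic random TSCs averaged -0.97 ± 0.22, that of U to arm random TSCs -1.47 ± 0.27 and that of heterochromatic random to arm random TSCs -0.50 ± 0.25 (SD, n = 22 hours each). Without the 10 strongest TSCs of each set the 3 ratios were -0.84, -2.11 and -1.27. Taken over the median TSC in place of the mean, the ratios of U and of heterochromatic random to arm random TSCs were -0.44 and -0.39, and that of U to heterochromatic random TSCs was -0.04 (adjusted p = 0.172, permutation test), so that the median TSCs of the 2 classes were not shown to differ. In shallow hours both medians were 0. At 12-13 h, 26.7% of U and 30.6% of heterochromatic random TSCs had a read, and at 19-20 h 38.0% and 37.1%. Such hours cannot show a difference between the medians.

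The ratio to the placed TSCs changed with age, in a comparison that was added after seeing the data. Against unassigned placed TSCs, the log2 ratio was 1.45 ± 0.06 in the middle window and 2.03 ± 0.16 in the early window, a difference of -0.58 (adjusted p = 0.0108, exact two-sided permutation test, n = 6 and 6). Against gene-assigned placed TSCs, it was -1.44 ± 0.22 in the late window and -0.78 ± 0.11 in the middle window, a difference of -0.65 (adjusted p = 0.0108, the same test). In the late samples 1 gene-assigned TSC held 13.1% to 18.2% of the reads. Without the 10 strongest TSCs of each set this ratio lay between -1.63 and -0.92 over the 22 hours, against -1.71 to -0.57 with them. The window tests were not repeated without these TSCs. The other 8 differences, which include every ratio between 2 scaffold classes, did not pass (adjusted p 0.0505 to 0.359), so no change in the balance of the 3 classes from window to window was shown.

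**Figure D1:**
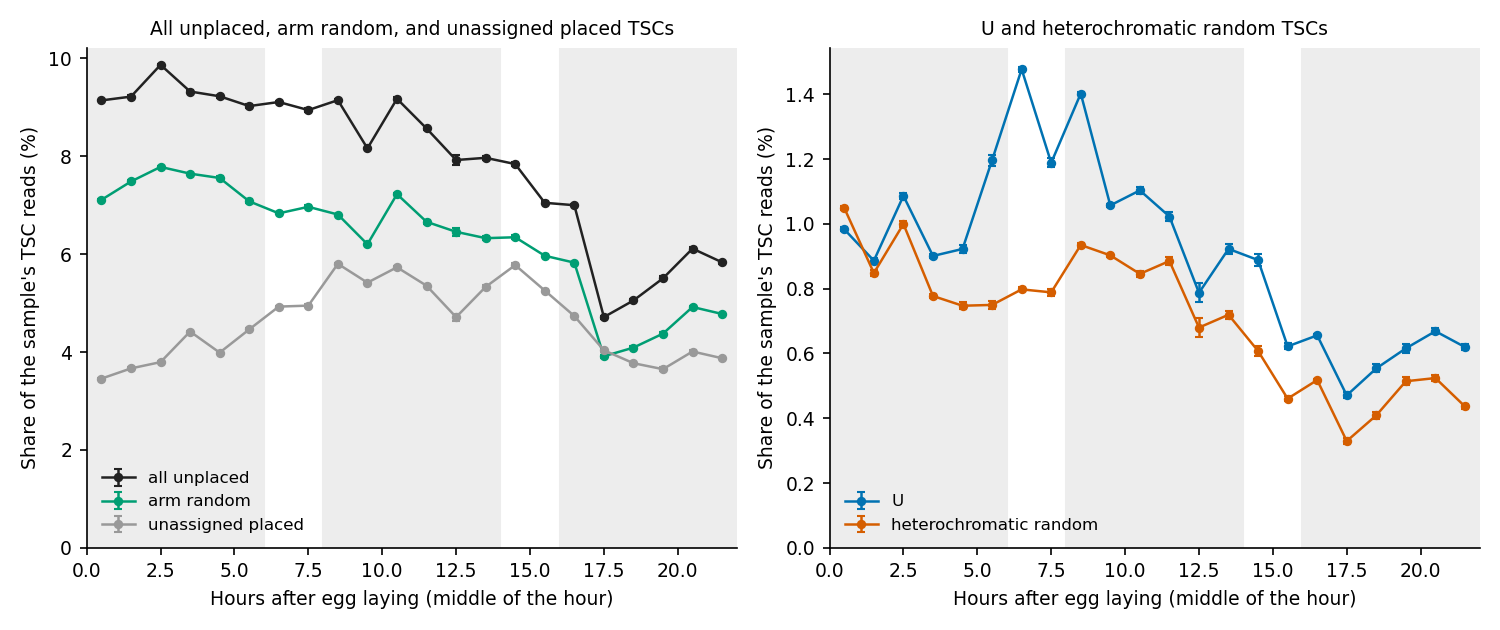
Share of each sample's reads in TSCs (percent, vertical axis) by hour after egg laying (horizontal axis, middle of the hour), left for all unplaced, arm random and unassigned placed TSCs, right for U and heterochromatic random TSCs. Points are single samples with 95% Wilson intervals of counting error, and grey bands are the early, middle and late windows; all unplaced TSCs held 9.87% at 2-3 h and 4.71% at 17-18 h, and U reached its highest share, 1.48%, at 6-7 h.

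Unplaced TSCs together held between 4.71% of a sample's reads at 17-18 h and 9.87% at 2-3 h, with a median over the hours of 8.37%. The arm random TSCs took most of this, between 3.91% at 17-18 h and 7.78% at 2-3 h. The share of U was lowest at 17-18 h (0.471%) and highest at 6-7 h (1.48%), and that of the heterochromatic random scaffolds was lowest at 17-18 h (0.329%) and highest at 0-1 h (1.05%). The plot of shares by hour shows that all 3 classes reached their lowest share in the same sample, in which the strongest gene-assigned TSC held 16.7% of the reads.

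The share of all unplaced TSCs was 5.70% ± 0.81 in the late window and 8.49% ± 0.57 in the middle window, a difference of -2.79 percentage points, and no late sample reached the lowest middle sample. The late window was also below the middle window for U (0.597% ± 0.074 and 1.05% ± 0.21), for heterochromatic random TSCs (0.455% ± 0.078 and 0.828% ± 0.104) and for arm random TSCs (4.65% ± 0.69 and 6.61% ± 0.37). Each of these 4 comparisons had an adjusted p of 0.00433 (exact two-sided permutation test, n = 6 and 6, adjusted over 8 tests). With the 10 strongest TSCs of each sample left out, the late decrease was smaller, at -1.23 points for all unplaced TSCs, and for arm random TSCs it no longer passed (-0.71 points, adjusted p = 0.0563, exact permutation test). As a share of the reads in unassigned TSCs alone, the arm random decrease was not seen, with a difference of 0.02 points (adjusted p = 0.994, exact permutation test).

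The middle and early windows were closer. All unplaced TSCs held 8.49% ± 0.57 in the middle and 9.30% ± 0.30 in the early window (adjusted p = 0.0231, exact permutation test, n = 6 and 6), and the 2 windows overlapped. Arm random TSCs held 6.61% ± 0.37 and 7.44% ± 0.29 (adjusted p = 0.0104, the same exact test). U, at 1.05% ± 0.21 and 0.996% ± 0.122, and heterochromatic random TSCs, at 0.828% ± 0.104 and 0.862% ± 0.132, differed by less than the spread within a window (adjusted p = 0.621 for both, the same exact test). Neither of the 2 differences that passed did so without the 10 strongest TSCs of each sample, where that of all unplaced TSCs was -0.0808 points and that of arm random TSCs -0.12 points (adjusted p = 0.708 for both, exact permutation test).

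The scaffolds did not share 1 course. X_random, with 998 TSCs, carried 35.1% of the summed mean RPM of unplaced TSCs and spread it over many starts: its strongest TSC held 6.86% of the scaffold. Its share of all reads was 3.64% ± 0.31 in the early, 3.12% ± 0.17 in the middle and 1.66% ± 0.16 in the late window. 2L_random had only 143 TSCs but 16.6% of the RPM, and 66.8% of that came from a single TSC. On 3L_random the share stood at 1.64% at 15-16 h, with a median over the hours of 0.350%, and 36.6% of its RPM again came from 1 TSC. Chromosome 4 contributed little: the 37 TSCs of 4_random held 0.0152% ± 0.0026 of the reads in the early, 0.0305% ± 0.0036 in the middle and 0.0275% ± 0.0069 in the late window. The 26 TSCs of Xh_random held 0.0260% ± 0.0073 in the early, 0.0172% ± 0.0031 in the middle and 0.00631% ± 0.00054 in the late window. These scaffold shares are descriptions without a test.

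Change over the 22 hours was tested with limma, which fitted a smooth curve of hour to log2(RPM + 1) of every TSC that reached 2 RPM. The curve was called at an adjusted p of 0.05 for 1716 of the 2190 unplaced TSCs tested (78.4%), against a background of 82.1% of all TSCs tested. By class this was 394 of 516 on U (76.4%), 165 of 212 on heterochromatic random scaffolds (77.8%) and 1157 of 1462 on arm random scaffolds (79.1%). A called curve that spanned at least 5-fold was found for 897 unplaced TSCs (41.0%), with 37.6% on U, 33.0% on heterochromatic random and 43.3% on arm random scaffolds, and for 49.1% of all TSCs tested. The share of unplaced TSCs called was thus near the background.

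Directions were read from the window means. In the middle over the early window, 394 unplaced TSCs were at least 2-fold higher and 238 at least 2-fold lower at an adjusted p of 0.05 (limma), beside backgrounds of 21.3% of all TSCs higher and 11.4% lower. The 394 were 81 of 516 TSCs tested on U, 38 of 212 on heterochromatic random and 275 of 1462 on arm random scaffolds. The 238 were 46, 24 and 168 in the same order. Calls in either direction made up 24.6%, 29.2% and 30.3% of these classes, beside 32.7% of all TSCs tested. The median change of unplaced TSCs, 0.20 on the log2(RPM + 1) scale, was close to that of all TSCs, 0.23. With other scalings of the samples, 303 of the 394 higher and 227 of the 238 lower calls were kept under both TMM and DESeq2 factors. The kept calls were 13.8% and 10.4% of the unplaced TSCs tested, beside 17.4% and 11.0% of all TSCs.

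In the late over the middle window, 158 unplaced TSCs were higher and 580 lower, beside backgrounds of 11.3% higher and 27.2% lower. The median change was -0.55 for unplaced TSCs and -0.53 for all TSCs. This split depended on the scaling: TMM factors gave 245 higher and 235 lower, and DESeq2 size factors 293 higher and 176 lower. Over all 20118 TSCs tested, TMM factors gave 3159 higher and 2432 lower, and DESeq2 size factors 3659 and 1769. Calls in either direction made up 21.9% and 21.4% of unplaced TSCs, beside 27.8% and 27.0% of all TSCs. The medians with these 2 scalings were -0.24 and -0.13 for unplaced TSCs, and -0.18 and -0.04 for all TSCs. The late samples are those in which a few TSCs held 29.1% to 39.6% of the reads, and the part of this in the result was not tested. The 158 higher calls and 176 of the 580 lower calls were kept under all 3 scalings, which is 7.21% and 8.04% of the unplaced TSCs tested, beside 11.3% and 8.77% of all TSCs. The 176 were 41 on U, 15 on heterochromatic random and 120 on arm random scaffolds, or 7.95%, 7.08% and 8.21% of the TSCs tested in each class. The 158 were 25, 7 and 126, or 4.84%, 3.30% and 8.62% in the same order.

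Taking both contrasts by RPM, 1104 of the 2190 tested TSCs (50.4%) were called in neither, beside 44.9% of all TSCs tested. The largest group with a call, 349 TSCs (15.9%), was lower late without a call before, beside 15.0% of all TSCs tested. A further 157 TSCs (7.17%) were higher in the middle window and lower again late, beside 8.52% of all TSCs. In the middle window with no later call, 185 (8.45%) were higher and 163 (7.44%) lower, beside 9.03% and 7.51%. Higher only in the late contrast were 105 (4.79%), beside 7.38%. Both contrasts were lower for 74 (3.38%) and higher for 52 (2.37%), beside 3.72% and 3.78%. A single TSC was lower in the middle and higher late. These patterns were counted by RPM alone, and the late calls in them depended on the scaling as given above.

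**Figure D2:**
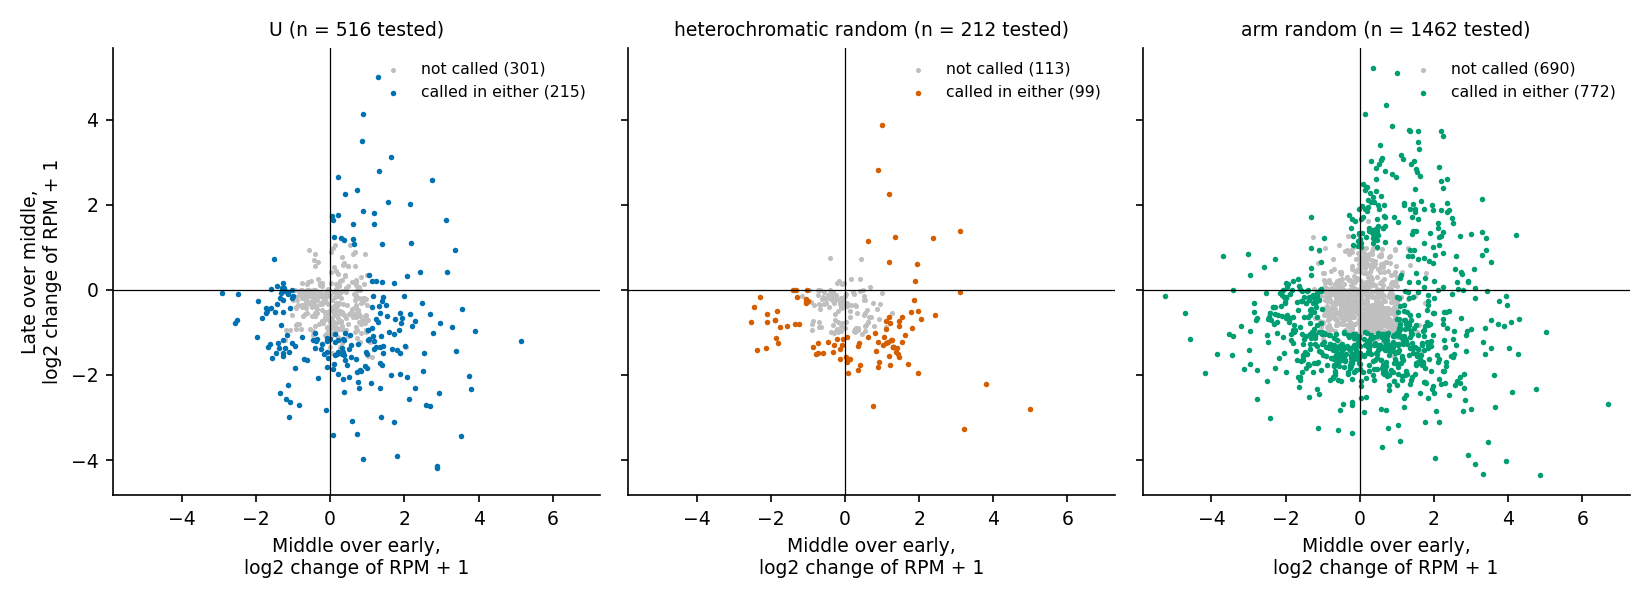
Change of each tested unplaced TSC between windows, on the log2(RPM + 1) scale, with middle over early on the horizontal and late over middle on the vertical axis, for U, heterochromatic random and arm random scaffolds. Coloured points passed an adjusted p of 0.05 (limma) and a 2-fold change in either contrast. They number 215 of 516, 99 of 212 and 772 of 1462 TSCs. Grey points passed in neither, which was 58.3%, 53.3% and 47.2% of the TSCs tested, beside 44.9% of all TSCs. The cloud lies below 0 on the vertical axis in all 3 classes, with medians of -0.53, -0.65 and -0.56.

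The strongest TSC on U was RAMPAGEpeak_000894 at chrU:12653760-12653885, on the minus strand. It averaged 2351 RPM, which was 25.8% of all RPM on U and rank 39 among all TSCs of the embryo. Its lowest value was 998 RPM at 1-2 h, its median 2039 RPM and its highest 4476 RPM at 8-9 h. It had reads in every hour with a spread under 5-fold. The middle samples (2074 to 4476 RPM) lay above every early sample (998 to 2005 RPM), and the change was 1.01 ± 0.22 on the log2 scale (adjusted p = 0.00117, limma), at the edge of the 2-fold limit. It missed this limit with TMM factors (0.76) and DESeq2 size factors (0.87), with wider windows (0.85), and without any 1 of the samples 1-2 h, 2-3 h, 8-9 h, 10-11 h or 11-12 h (0.88 to 0.98).

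A group of 3 strong TSCs on U had its highest values between 2-3 h and 6-7 h and lower values late. RAMPAGEpeak_000160 (chrU:15751853-15751911, plus strand) was lowest at 19-20 h (50.9 RPM) and highest at 6-7 h (1389 RPM), with a median of 385 RPM, and its first sample already held 776 RPM. It averaged 935 ± 252 RPM in the early, 382 ± 168 RPM in the middle and 66.1 ± 14.6 RPM in the late window (SD, n = 6 each). Both contrasts passed, with -1.36 ± 0.28 for middle over early (adjusted p = 0.00065) and -2.43 ± 0.28 for late over middle (adjusted p = 1.14e-06, limma), and both held under the 2 other scalings. RAMPAGEpeak_000650 (chrU:13087455-13087530, minus strand) had its highest value, 1825 RPM, at 5-6 h and its lowest, 177 RPM, at 21-22 h, and over the 22 hours its log2 values followed those of RAMPAGEpeak_000160 with a Pearson correlation of 0.958. RAMPAGEpeak_000810 (chrU:2653630-2654040, minus strand) had 1172 RPM at 2-3 h and 128 RPM at 19-20 h. These 2 TSCs were lower in the middle than in the early window, by -1.12 ± 0.26 and -1.29 ± 0.28 (adjusted p = 0.00195 and 0.00104, limma). All 3 lie far from one another on U, where the order of sequence is arbitrary.

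RAMPAGEpeak_000799 and RAMPAGEpeak_000141 had their highest values before 3 h. RAMPAGEpeak_000799 (chrU:14259591-14259789, minus strand) stood at 755 and 715 RPM at 1-2 h and 2-3 h, and between 176 and 317 RPM in the other 4 early samples. RAMPAGEpeak_000141 (chrU:1241694-1241822, plus strand) had 466 RPM at 0-1 h, above the other early samples at 270.1 to 306 RPM. It rose again to 324, 351 and 398 RPM in the samples of 6-7 h, 7-8 h and 8-9 h. Neither passed in the middle over early contrast (-0.62 ± 0.32 and -0.25 ± 0.27, adjusted p = 0.127 and 0.475, limma), and both were called lower late than in the middle by RPM (-1.64 and -1.40). With TMM factors these changes were -0.91 (adjusted p = 0.0347, limma, under the 2-fold limit) and -0.67, and with DESeq2 size factors -0.62 and -0.37, so neither was called. RAMPAGEpeak_000235 (chrU:10472410-10472636, plus strand) ranged between 181 and 565 RPM. By RPM it was called lower late than in the middle window (-1.15 ± 0.23, adjusted p = 0.000377, limma). TMM factors gave -0.41 and DESeq2 size factors -0.11, without a call.

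RAMPAGEpeak_000408 (chrU:7591629-7591829, plus strand) ran the other way and was the only one of the 8 strongest U TSCs that was called higher in both contrasts. It had 11.1 to 25.4 RPM in every hour before 7 h, 61.2 to 618 RPM in the middle window and 439 to 697 RPM in the late window, with its highest value at 16-17 h. The changes were 3.11 ± 0.41 for middle over early (adjusted p = 2.88e-06) and 1.64 ± 0.41 for late over middle (adjusted p = 0.00253, limma), and both held under all 3 scalings. Its log2 values ran opposite to those of RAMPAGEpeak_000810 over the 22 hours, with a correlation of -0.95. The points of these correlations share their libraries and the scaling of each sample.

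**Figure D3:**
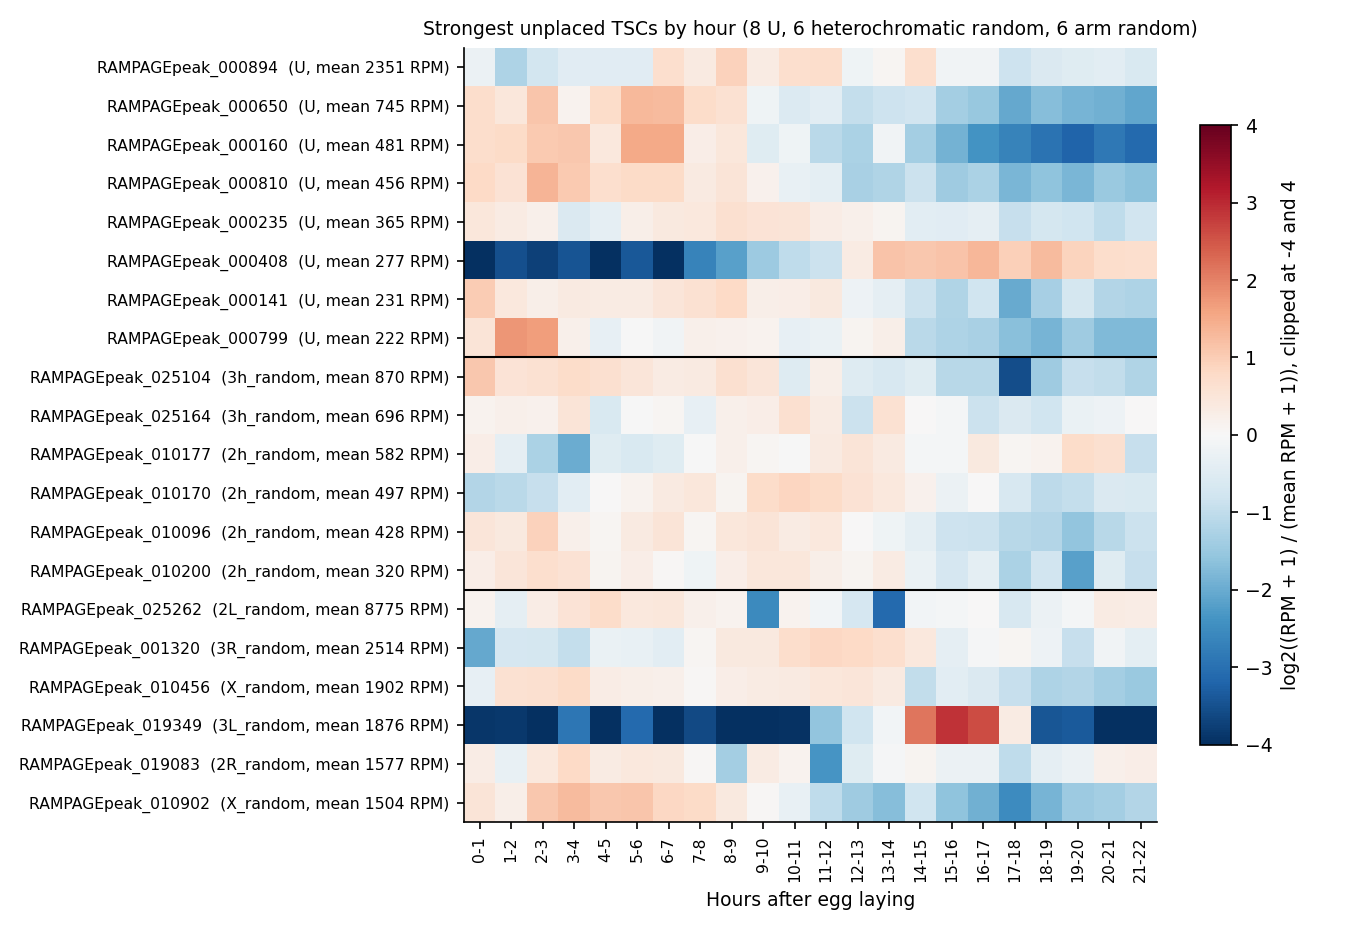
RPM of the strongest unplaced TSCs in each hour (columns, hours after egg laying) relative to each TSC's mean, as log2((RPM + 1)/(mean RPM + 1)), with red above and blue below the mean and colours clipped at 4 in either direction. Rows are the 8 strongest TSCs on U, 6 on heterochromatic random and 6 on arm random scaffolds; RAMPAGEpeak_000408 stands below its mean until 11-12 h, and RAMPAGEpeak_019349 is red at 14-15 h to 16-17 h, when it held 8217, 13915 and 11526 RPM.

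On the heterochromatic random scaffolds the strongest TSCs had reads in every hour. RAMPAGEpeak_025104 (chr3h_random:1122473-1122628, plus strand) had 1835 RPM at 0-1 h, a median of 827 RPM and 72.8 RPM at 17-18 h, a sample in which it lay far below its neighbours at 16-17 h (401 RPM) and 18-19 h (323 RPM). RAMPAGEpeak_025164 (chr3h_random:974194-974414, minus strand) varied only between 383 and 1081 RPM and passed in neither contrast. RAMPAGEpeak_010170 (chr2h_random:1485622-1485884, minus strand) was a mid-embryonic TSC within this narrow kind of range: it had 540.1 to 900 RPM in the middle window, against 218 to 545 RPM in the early window (1.16 ± 0.27, adjusted p = 0.00156, limma), a call lost with TMM factors (0.91) and with wider windows (0.96). It peaked at 10-11 h.

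The other strong TSCs of 2h_random differed among themselves. RAMPAGEpeak_010177 (chr2h_random:895426-895540, minus strand) dipped to 146 RPM at 3-4 h and had its highest value, 969 RPM, at 19-20 h, and was not called in either contrast at 2-fold (0.99 ± 0.32 and -0.07 ± 0.32). RAMPAGEpeak_010096 (chr2h_random:1620669-1620971, plus strand) and RAMPAGEpeak_010200 (chr2h_random:605687-605993, minus strand) were both highest at 2-3 h, at 819 and 508 RPM, both lowest at 19-20 h, at 142 and 70.8 RPM, and correlated at 0.90 over the hours. Their late decrease, -1.39 ± 0.22 and -1.30 ± 0.26 (adjusted p = 3.78e-05 and 0.000395, limma), was called by RPM only.

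RAMPAGEpeak_025262, on the plus strand at chr2L_random:208511-208934, was the strongest unplaced TSC and rank 8 among all TSCs. It averaged 8775 RPM, which was 11.1% of all unplaced RPM. Its values were lowest at 13-14 h (1018 RPM) and 9-10 h (1491 RPM), and these 2 samples were far under the middle window's highest (9697 RPM). Its highest value was 14676 RPM at 4-5 h. Its mean was 11104 ± 2703 RPM in the early, 5923 ± 3931 RPM in the middle and 8691 ± 2064 RPM in the late window (SD, n = 6 each). Middle over early was -1.33 ± 0.44 (adjusted p = 0.0199, limma), a call that rested on these 2 samples: without 13-14 h it was -0.91 (adjusted p = 0.0568) and without 9-10 h -1.02 (adjusted p = 0.0583). On the recovered reads edgeR did not call it (-0.91, adjusted p = 0.0802). Late over middle was not called by RPM (0.98 ± 0.44, adjusted p = 0.0726) and was called higher with TMM factors (1.72) and DESeq2 size factors (2.01). RAMPAGEpeak_019083 (chr2R_random:2176712-2177052, minus strand) also had isolated low samples, 305 RPM at 11-12 h and 619 RPM at 8-9 h, against 1119 to 1969 RPM in the other middle samples.

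The largest change over time among the strong TSCs was that of RAMPAGEpeak_019349, on the minus strand at chr3L_random:320873-321142. It stood at 51.4 to 252 RPM in every hour before 11 h, reached 632, 1073 and 1732 RPM in the next 3 hours, and then stood at 8217, 13915 and 11526 RPM in the 3 samples of 14-15 h to 16-17 h. The next hour had 2364 RPM, and the oldest sample 7.38 RPM, or 21 reads. At its height it had 40746 reads in 1 sample, and 96.0% of its RPM lay in 8 consecutive hours. The smooth curve passed (adjusted p = 1.88e-11, limma), while the window contrasts did not (0.92 ± 1.18 and 0.12 ± 1.18). Of its 3 highest hours, 2 lie in the gap between the middle and the late window, which the contrasts leave out.

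The remaining strong arm TSCs had smoother courses. RAMPAGEpeak_001320 (chr3R_random:1302217-1302360, minus strand) was a mid-embryonic TSC with 3264 to 4486 RPM in the middle window, above every early sample (604 to 2108 RPM), a change of 1.45 ± 0.26 (adjusted p = 0.000136, limma) that held under all 3 scalings. RAMPAGEpeak_010902 (chrX_random:5130992-5131318, minus strand) was an early TSC, with 463 to 1986 RPM in the middle window, against 1786 to 3606 RPM in the early window (-1.55 ± 0.33, adjusted p = 0.000767, limma). RAMPAGEpeak_010456 (chrX_random:3462294-3462534, plus strand) held 1528 to 3214 RPM in the early, 2268 to 2688 RPM in the middle and 685 to 1267 RPM in the late window. By RPM 12 of the 20 strongest TSCs were called lower late than in the middle window. Only RAMPAGEpeak_000160 among them was called lower under all 3 scalings, the other 11 by RPM alone.

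A housekeeping TSC is here one that reached 10 RPM and whose highest value was under 5 times its lowest, and a regulated TSC one that reached 10 RPM with at least 60% of its RPM within 8 consecutive hours. Of the 1048 unplaced TSCs that reached 10 RPM, 66 (6.30%) were housekeeping and 634 (60.5%) regulated, against 5.85% and 60.3% of gene-assigned placed TSCs and 1.86% and 77.3% of unassigned placed TSCs. By class, housekeeping TSCs made up 8 of 196 on U (4.08%), 11 of 87 on heterochromatic random scaffolds (12.6%) and 47 of 765 on arm random scaffolds (6.14%), and regulated TSCs made up 69.9%, 58.6% and 58.3%. These counts moved with depth: with every sample thinned to the reads of the shallowest, 42 of 1169 unplaced TSCs were housekeeping, and 4 of 99 on heterochromatic random scaffolds. Thinning also lowered the share to 3.01% of gene-assigned placed TSCs and 0.71% of unassigned placed TSCs. No test was made of these shares.

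The flattest unplaced TSC was RAMPAGEpeak_010714 (chrX_random:2930651-2930849, plus strand), with 197 RPM at 17-18 h, a median of 302 RPM and 452 RPM at 3-4 h, a 2.29-fold range. RAMPAGEpeak_000842 (chrU:2582073-2582287, minus strand) was next, between 117 RPM at 8-9 h and 290 RPM at 13-14 h (2.48-fold), and RAMPAGEpeak_010415 (chrX_random:3668706-3668858, plus strand) held between 742 RPM at 16-17 h and 1948 RPM at 8-9 h (2.63-fold). By RPM, no change with hour was detected for RAMPAGEpeak_010714 and RAMPAGEpeak_000842 (adjusted p = 0.606 and 0.714, limma). The curve of RAMPAGEpeak_010415 did pass by RPM (adjusted p = 0.00155, limma). Late over middle with DESeq2 size factors, RAMPAGEpeak_010714 was at 0.96 and RAMPAGEpeak_000842 at 1.02 (adjusted p = 0.00312 and 0.00622, limma). Only RAMPAGEpeak_000842 was thus called higher at 2-fold. TMM factors gave 0.66 and 0.73, with neither called. A range under 5-fold is thus no statement that a TSC did not change.

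At the other end were the TSCs with the largest share of their RPM in 1 window, which were picked for that share and are described without a test. The early ones were weak and were read in few samples. RAMPAGEpeak_019238 (chr3L_random:652328-652371) had all its reads in the early window and 40.3 RPM, or 192 reads, at 2-3 h. RAMPAGEpeak_010215 (chr2h_random:199034-199084) likewise had all its reads there, with 14.1 RPM at 2-3 h, and RAMPAGEpeak_000594 on U had 10.1 RPM at 2-3 h and 98.0% of its RPM in the early window. The middle ones were highest at 12-13 h, the shallowest sample, where they rested on 4 to 14 reads. RAMPAGEpeak_000210 (chrU:9124722-9124733) had 15.3 to 37.2 RPM in the 4 samples of 10-11 h to 13-14 h and at most 5.11 RPM in any other hour. RAMPAGEpeak_019043 (chr2R_random:1246803-1246822) reached 43.4 RPM and RAMPAGEpeak_010205 (chr2h_random:1692654-1692716) 12.4 RPM in that sample.

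Of the late ones, the TSC with the highest value was RAMPAGEpeak_019002 (chr2R_random:2010617-2010656). It stood at 5.65, 17.5, 40.7, 81.1, 153 and 227 RPM in the 6 late hours in order of age, and at no more than 7.31 RPM in any earlier hour, so that it was still climbing in the oldest sample. RAMPAGEpeak_025192 (chr3h_random:300411-300459) had 27.4 to 104 RPM in the late window, highest at 19-20 h, with 85.2% of its RPM there. RAMPAGEpeak_000172, a single base at position 13349578 on U, had 10.2 RPM at 21-22 h, which was 29 reads.

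**Figure D4:**
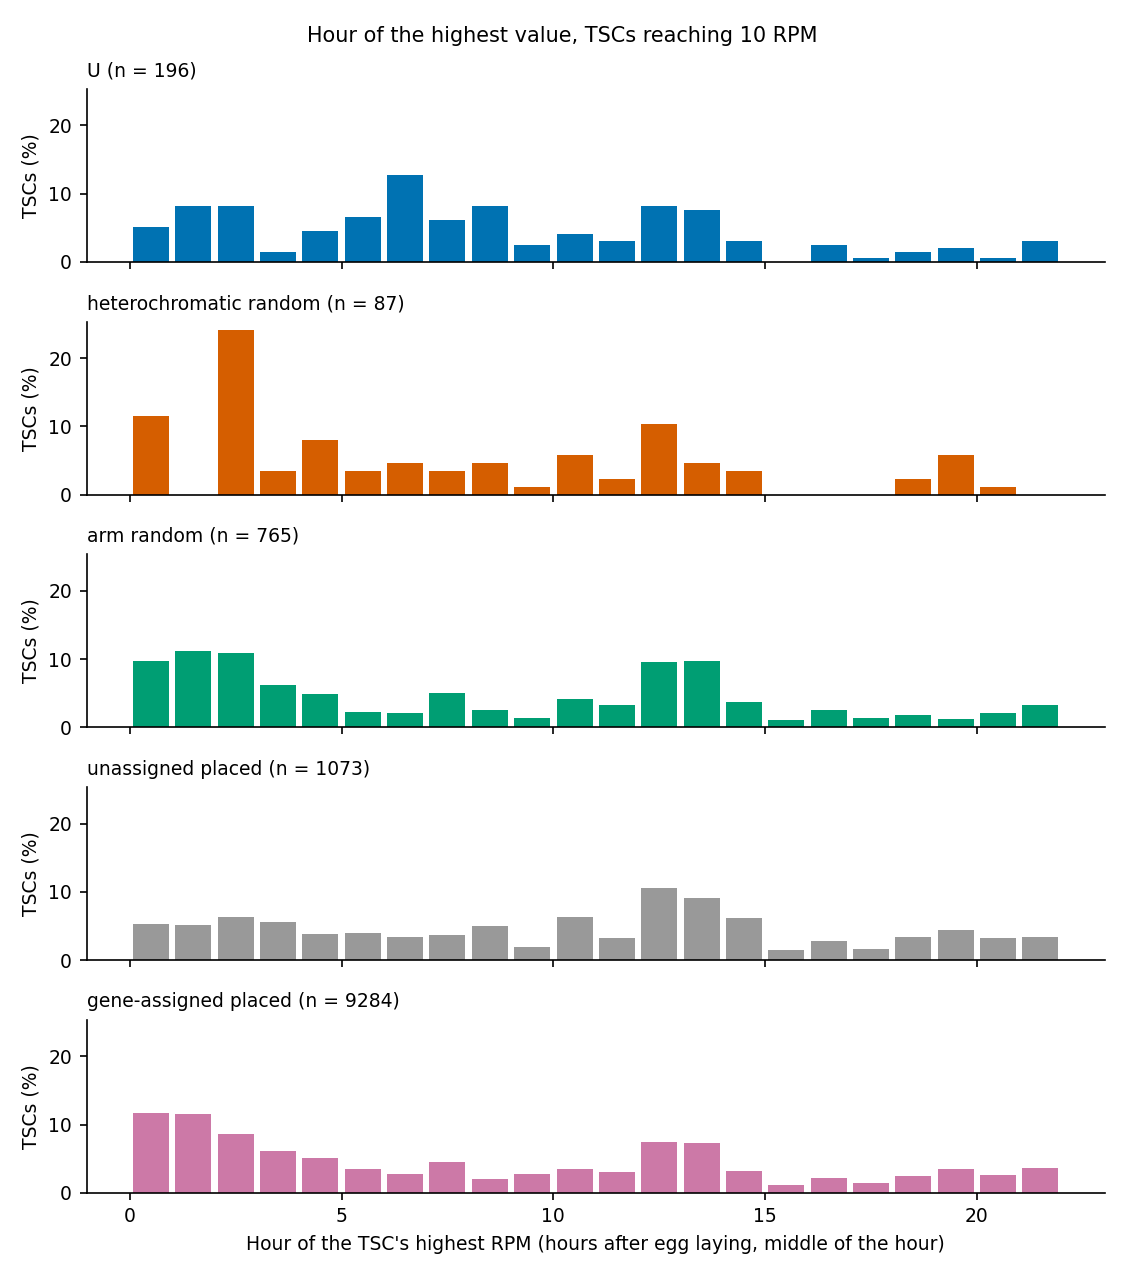
Hour at which each TSC had its highest RPM (horizontal axis, hours after egg laying), as the percent of TSCs that reached 10 RPM (vertical axis), for U, heterochromatic random, arm random, unassigned placed and gene-assigned placed TSCs. U has its highest bar at 6-7 h (12.8%) and the heterochromatic random scaffolds at 2-3 h (24.1%); the bars at 12-13 h include TSCs with few reads in that shallow sample.

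The highest value of an unplaced TSC fell most often in the early window. Of the 1048 TSCs that reached 10 RPM, 456 (43.5%) were highest in the early, 325 (31.0%) in the middle and 122 (11.6%) in the late window, and 145 (13.8%) in the hours between. Among gene-assigned placed TSCs the early share was 46.4%, the middle share 26.0% and the late share 15.9%, and among unassigned placed TSCs 30.01%, 36.3% and 18.9%. The early share was 34.2% on U, 50.6% on heterochromatic random scaffolds and 45.1% on arm random scaffolds. Of the 98 unplaced TSCs highest at 12-13 h, only 44 had at least 10 reads in that sample.

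The most frequent hour of the highest value differed between the sets. It was 1-2 h on arm random scaffolds (11.2%) and 0-1 h among gene-assigned placed TSCs (11.6%). On the heterochromatic random scaffolds 21 of 87 TSCs (24.1%) were highest at 2-3 h, none at 1-2 h and 10 at 0-1 h. The share at 2-3 h was 8.16% on U and 10.8% on arm random scaffolds. It was 6.34% among unassigned placed and 8.55% among gene-assigned placed TSCs. On U 25 of 196 TSCs (12.8%) were highest at 6-7 h, against 4.60% on heterochromatic random scaffolds and 16 of 765 (2.09%) on arm random scaffolds. Among placed TSCs these were 36 of 1073 unassigned (3.36%) and 259 of 9284 gene-assigned TSCs (2.79%). All 21 and all 25 had at least 10 reads in the hour of their highest value. Each of these hours is a single sample, and no test between samples of the same age was possible.

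The 25 TSCs of U with their highest value at 6-7 h were looked at further, a choice made after their values were seen. They divided by their level at the start. In 15 of them every value before 3 h was at most 10% of the highest value, and none exceeded 3.57 RPM there. In the other 10, which include RAMPAGEpeak_000160, transcripts were already present in the first samples. The median of the 15 was 0.188, 0.545 and 0.839 RPM in the first 3 hours, then 4.89, 9.41, 12.1 and 22.1 RPM in the 4 samples of 3-4 h to 6-7 h. It stood at 13.4 RPM in the next hour and was down to 5.06 RPM at 10-11 h and to 1.05 RPM in the oldest sample. The low values before 3 h and the highest at 6-7 h follow from the choice of these TSCs.

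The 2 strongest of the 15 were RAMPAGEpeak_000101 (chrU:12777203-12777275, plus strand), with 172 RPM and 1459 reads at 6-7 h, and RAMPAGEpeak_000105 (chrU:9232680-9232711, plus strand), with 134 RPM and 1139 reads. The weakest, RAMPAGEpeak_000414 (chrU:15034079-15034152, plus strand), had 11.9 RPM and 101 reads. Widths ran between 13 and 501 bp with a median of 74 bp, and 9 of the 15 were on the plus strand. Their profiles were alike, with pairwise correlations of 0.562 to 0.985 over the 22 hours (median 0.843, 105 pairs), which the choice by a shared hour in part fixes. They were spread over U between RAMPAGEpeak_000845 (chrU:3313220-3313708) and RAMPAGEpeak_000414, and no 2 of the 25 had the same reads.

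The same pattern, highest at 6-7 h and at most 10% of that before 3 h, was met by 15 of 196 TSCs on U (7.65%), 2 of 87 on heterochromatic random scaffolds (2.30%), 5 of 765 on arm random scaffolds (0.654%), 19 of 1073 unassigned placed TSCs (1.77%) and 74 of 9284 gene-assigned placed TSCs (0.797%). Whatever the hour of the highest value, a level of at most 10% before 3 h was found for 85 TSCs on U (43.4%), 24 on heterochromatic random scaffolds (27.6%) and 236 on arm random scaffolds (30.8%), beside 57.5% of unassigned placed and 31.9% of gene-assigned placed TSCs. The shares of all 3 classes lay below that of unassigned placed TSCs.

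**Figure D5:**
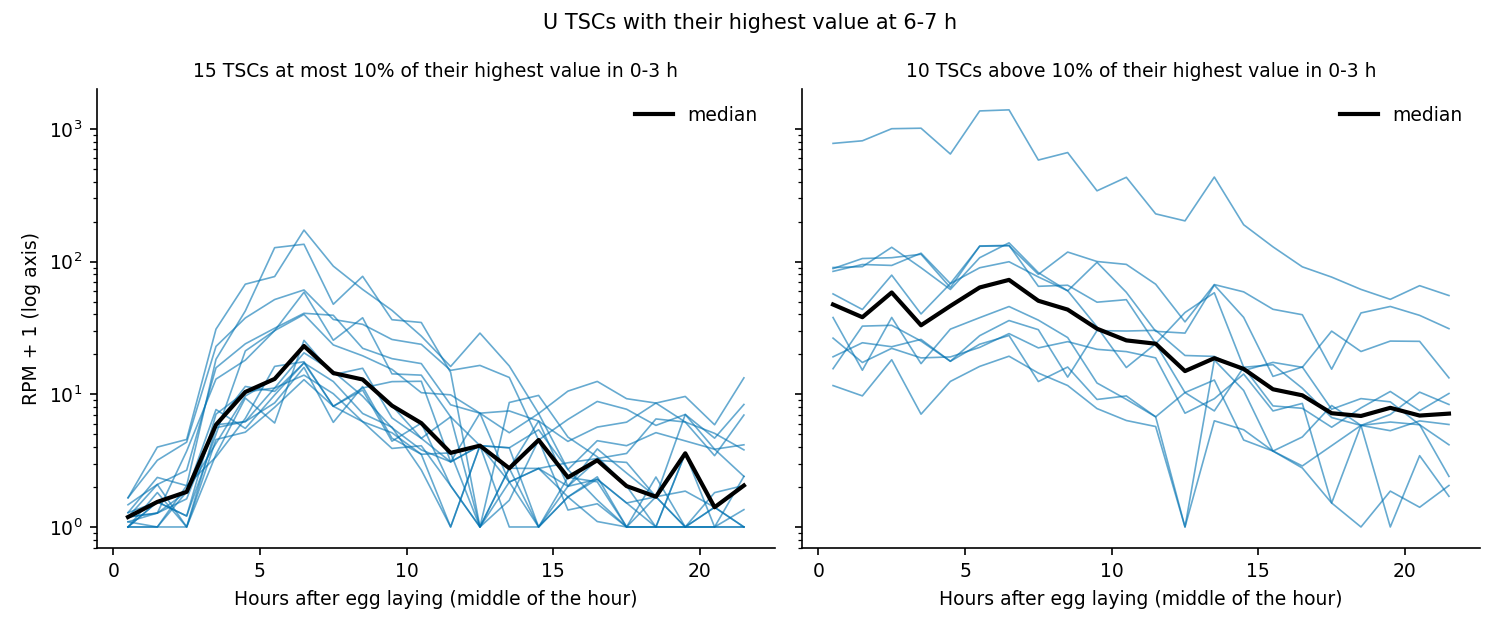
RPM + 1 on a log axis by hour after egg laying for the 25 TSCs on U whose highest value was at 6-7 h, left the 15 with every value before 3 h at most 10% of their highest, right the other 10. Thin lines are single TSCs and the thick line is their median; on the left the median is below 1 RPM in the first 3 hours and 22.1 RPM at 6-7 h.

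Strand and spacing were taken from the deposited positions. Plus-strand TSCs numbered 1488 (50.5%). Divergent pairs are a minus-strand TSC followed within 500 bp by a plus-strand TSC, as at a bidirectional promoter. They held 339 unplaced TSCs (11.5%) in 177 pairs, with a median gap of 186 bp, against 18.0% of placed TSCs. Among the placed TSCs they held 14.3% of the unassigned and 19.1% of the gene-assigned. The share was 5.11% on U, 14.3% on heterochromatic random scaffolds and 13.6% on arm random scaffolds. The distance to the next TSC on the same strand had a median of 11457 bp on U, 3239 bp on heterochromatic random and 1594 bp on arm random scaffolds, against 1312 bp on placed chromosomes. Positions on U run across joins of unrelated sequence, so the distances there are partly between pieces that are not neighbours in the genome.

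In 60 of the 177 pairs both TSCs reached 10 RPM. The correlation of their log2 values over the 22 hours had a median of 0.468 (quartiles 0.195 and 0.704) and was negative in 11 pairs. Placed pairs had a median of 0.467 (1029 pairs). The most alike pair was on 2L_random, RAMPAGEpeak_025336 and RAMPAGEpeak_025249, 163 bp apart, with means of 154 and 756 RPM and a correlation of 0.921. The least alike was on 3R_random, RAMPAGEpeak_001368 and RAMPAGEpeak_001224, 218 bp apart, with means of 22.2 and 51.6 RPM and a correlation of -0.618. Pairs with like and with opposite profiles were thus both found. No unplaced TSC had the same reads in all 22 samples as another unplaced TSC, whereas 1 had the same reads as a placed TSC. How reads that map to several copies were counted is not given in the sources used here, so this says nothing of copies that differ or were mapped uniquely.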

How the data were processed

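RAMPAGE reads were mapped by the authors with STAR (submitters' processing notes, no version given) to the FlyBase r1.4 assembly. Peaks were called by the authors with their own caller on the pooled reads of all hours, and peaks over annotated rDNA were removed by them. The treatment of reads that map to several places, which bears on repeat-rich scaffolds, and of duplicate reads is not given in the sources used here. The authors deposited RPM values for each TSC and sample; each sample sums to 1000000. A whole-number score per peak deposited by the authors, whose meaning is not given in the sources used here, was not used for any result. Dividing by the value of 1 read gave whole reads for 100% of values (tolerance 0.01).

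The main tests were run on log2(RPM + 1) with limma 3.58.1 (R 4.3.3), with the trend option, over all 20118 TSCs that reached 2 RPM in any sample, with Benjamini-Hochberg adjustment over all of them: a smooth curve of hour (natural cubic spline, 4 degrees of freedom) over 22 samples, and contrasts of window means over 18 samples (hours 6-8 h and 14-16 h left out), called at an adjusted p of 0.05 and 2-fold. Fold changes on this scale understate the change of weak TSCs. As a count test on the recovered reads, edgeR 4.0.16 called the spline for 1907 of the 2190 unplaced TSCs tested (87.1%). It called 88.9% of all TSCs tested. DESeq2 1.42.0 gave size factors for an alternative scaling. Shares and ratios were computed with Python 3.11.15, numpy 2.4.6 and pandas 2.3.3, and tested by permutation of samples. The floor was taken as 3 reads, worth 0.174 to 9.30 RPM depending on the sample. It and the Wilson intervals (95%) cover counting error only. Each procedure was tested on simulated data. Figures were drawn with matplotlib 3.10.9.

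The text names the TSCs with the highest mean RPM of each class (8, 6 and 6), the TSC of each class with the largest share of its RPM in each window among those that reached 10 RPM, and the 3 housekeeping TSCs with the smallest range. Other TSCs named were chosen after their values were seen. The members, lists and tests were chosen with earlier results of these data known. Alternatives were other pseudocounts, filters, scalings, window limits and spline degrees, edgeR, thinning to the shallowest sample, and leaving out single samples or the strongest TSCs. The deposited gene table and the authors' aligned score table hold no unplaced TSC and were not used. Sequences of the TSCs are not shown, since no genome of this build was used here.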

Additional observations from a re-analysis of the deposited data

Results flagged for a closer look

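Within windows of 6 samples, 72 sets of values were examined for a sample far from the others, and 6 had one, where chance alone gives about 1 in 20. Such a sample was 2-3 h for the share of reads in all unplaced TSCs (9.87%, early window). RAMPAGEpeak_000650 had 1127 RPM at 8-9 h, above the other middle samples. RAMPAGEpeak_000141 had 466 RPM at 0-1 h, above the other early samples. RAMPAGEpeak_025104 had 72.8 RPM at 17-18 h, below the other late samples. RAMPAGEpeak_010170 had 498 RPM at 16-17 h and RAMPAGEpeak_019349 had 11526 RPM at 16-17 h, the youngest late sample, both above the other late samples. The hours of a window differ in age.

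The ratio of unplaced to placed TSCs differed between windows by a test of the difference itself, added after seeing the data. Against unassigned placed TSCs the log2 ratio of the middle minus the early window was -0.58, and against gene-assigned placed TSCs that of the late minus the middle window was -0.65 (adjusted p = 0.0108 for both, exact two-sided permutation test, 6 against 6 samples). Neither test was repeated without the strongest TSCs, and 1 gene-assigned TSC held 13.1% to 18.2% of the reads of each late sample.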

How the results depend on the processing

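Calls over many TSCs depended most on the scaling and the pseudocount. Late over middle, 158 unplaced TSCs were higher and 580 lower, against 245 and 235 with TMM factors, 293 and 176 with DESeq2 size factors, and 103 and 385 with a pseudocount of 3 RPM, which also gave 248 higher in the middle over the early window in place of 394. The spline was called for 978 TSCs with a minimum of 10 RPM, which leaves 1048 to test, and housekeeping TSCs numbered 42 in place of 66 after thinning to the shallowest sample.

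Without the 10 strongest unplaced TSCs, the middle minus early differences in share were -0.378 points for all unplaced (adjusted p = 0.193), -0.221 for arm random (0.302) and -0.119 for U (0.193, turned in sign; all exact permutation tests). Without the 10 strongest TSCs of each sample, they were -0.0808 for all unplaced and -0.12 for arm random, and late minus middle for arm random was -0.71. With wider windows U was -0.0183 for middle minus early, and with unassigned TSCs alone as the denominator arm random was 0.0236 for late minus middle, both turned in sign and neither passing. The U to heterochromatic random ratio over the median TSC was -0.0432. The cause of these changes was not tested.

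Leaving out each sample in turn gave spline calls of 1647 to 1782, middle over early calls of 351 to 424 higher and 207 to 263 lower, and late over middle calls of 149 to 179 higher and 512 to 674 lower. For middle minus early shares the ranges were -0.947 to -0.697 for all unplaced, -0.952 to -0.747 for arm random, -0.0174 to 0.106 for U and -0.0568 to 0.0035 for heterochromatic random TSCs. The sign turned for U without 8-9 h and for heterochromatic random TSCs without 0-1 h, where no difference had been called. The late minus middle shares kept their sign and call. Of the 22 calls of strong TSCs between windows, 8 held under every alternative and 0 turned in sign; late over middle, the call of RAMPAGEpeak_010902 dropped under 2-fold without any 1 of the samples 8-9 h, 9-10 h, 10-11 h or 17-18 h (-0.97 to -0.83). Depth limits weak TSCs: 3 reads at 12-13 h are 9.30 RPM. Samples could not be paired between hours, because each hour has 1 sample and the labels carry no replicate numbers shared between hours. The ratios between sets of TSCs were taken within each sample.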
